A study of Homo sapiens with 6 samples.

Results

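The 53 genes described here run DNA replication and mitosis. They are the cyclins, the cyclin-dependent kinases, the replication licensing proteins, the spindle checkpoint, the mitotic kinases and motors, and the regulators around them. They were chosen by symbol, with Ensembl gene identifiers matched to symbols, and all 53 were found among the 60709 genes with values. Each was placed in 1 of 11 functional groups. From textbook knowledge of when their transcripts peak, 17 were also listed as G1/S genes and 25 as G2/M genes, and 11 were given neither phase.

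The study sequenced messenger RNA of SH-SY5Y, an established human neuroblastoma line, in 6 samples. The labels list 3 wells given 10 uL of DMSO alone, called control, and 3 wells given 10 uL of DMSO plus an Nrf2-peptide-linked fumarate in water. For each such well, 200 uL was taken from a solution of 2 mg peptide in 600 uL water, and wells held 2 mL of medium. All wells were at 80% confluence and were lysed after 5 h, and no water addition is given for the control wells. Count columns numbered 4, 5 and 6 match the numbers of the control samples in the labels, and are called control replicates 1, 2 and 3. The peptide samples carry the numbers 13, 14 and 15, which no column has, so no comparison of peptide and control was made. If the columns were numbered afresh, the libraries called control here could be others. Neither the labels nor the column names decide between these readings, and the count values of the other columns were not examined for it. The labels do not say whether the 3 wells came from separate cultures, so an SD over them may be technical. All values are of 1 cell line in 1 condition.

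Cells copy their DNA once per cycle and then divide it. In G1, D-type cyclins with CDK4 and CDK6 phosphorylate the retinoblastoma protein RB1, which releases E2F factors to switch on replication genes. Later, the B-type cyclins with CDK1 drive mitosis, the spindle checkpoint delays anaphase until every chromosome is attached, and the anaphase-promoting complex (APC/C) then marks cyclin B for destruction. In neuroblastoma, a tumor of the sympathetic lineage, high cyclin D1 is a well-known feature.

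The 3 libraries held 10683037, 11397407 and 8887854 counts. The 53 genes took 0.905%, 0.944% and 0.912% of them. Genes of mitochondrial DNA took 4.11%, 3.83% and 6.25%, so replicate 3 was the shallowest library and the richest in mitochondrial transcripts. Counts of the 52 detected members differed between each pair of libraries beyond counting noise, with a chi-square per degree of freedom of 3.70 (replicate 1 with 2), 15.2 (1 with 3) and 8.31 (2 with 3). Over all detected genes it was 2.21, 10.2 and 9.21 in the same pairs, so members exceeded all genes in 2 of 3 pairs. This measure rises with the count of a gene wherever the spread exceeds counting noise. The median detected member had 110.8 counts per 1000000 and the median of all detected genes was 31.3. The part of abundance in the excess was not tested. Of 12 noradrenergic neuroblastoma markers, 11 were detected, with a summed level of 4216 to 4606 counts per 1000000 (CPM), and HAND2 led them at 914 ± 44.3 CPM (SD, n = 3). The noradrenergic enzyme gene TH had 0 counts in each library. Of 8 fibroblast or mesenchymal markers, 7 were detected (419 to 472 CPM in sum), led by COL3A1 at 316 ± 21.0 CPM, while COL1A2 lay at 0.19 CPM. Only 1 of 6 epithelial and 1 of 6 blood markers were detected, each list summing to at most 3.15 CPM.

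The promoters of these genes carry known phase-specific letters, and they are shown first because their shares differ between G1/S and G2/M members without any count. The phase lists and the choice of motifs both come from textbook knowledge of the same genes, so their match is no independent evidence. RefSeq start sites (GRCh38.p14) were found for 39 members, with a window from 250 bases before the start to 50 after it. Some genes have several starts, and a match at any of them counted. The 39 members had 56 windows and all 27305 genes with a promoter had 35116. Per window rather than per gene, 15.2% of all windows held CHR letters and 3.31% held E2F letters. The members without an entry are AURKA, BIRC5, BUB3, CCND1, CCND2, CCNE2, CDK2, FOXM1, MCM4, MCM5, TPX2, TTK, UBE2C and WEE1. The cell cycle homology region (CHR) was searched as TTTGAA on both strands, the E2F site as TTTCCCGC, TTTGGCGC, TTTCGCGC or TTTGCCGC on both strands, and the CCAAT box as CCAAT on both strands. A match is a string of letters and was not tested as a bound site, and no match says only that these letters are not in this window.

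CHR letters stood in 12 of 19 G2/M promoters (63.2%) and in 1 of 14 G1/S promoters (7.14%, RRM1), beside 18.2% of 27305 genes with a window of the same length. In 8 of the 19 the match began within 30 bases before the start, where 1.92% of all genes had one. Those 8 sites are printed below on the gene's strand, 5′ to 3′, with the CHR letters in capitals. In KIF11 the capitals read TTCAAA because the match is on the opposite strand. The CDC25C letters also lie 43 bases after another start of that gene. CDK1 has a further match, 161 bases before another start.
PLK1, chr16:23678848-23678877, plus strand: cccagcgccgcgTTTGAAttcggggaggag
CCNB2, chr15:59105105-59105134, plus strand: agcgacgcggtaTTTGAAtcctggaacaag
MKI67, chr10:128126435-128126464, minus strand: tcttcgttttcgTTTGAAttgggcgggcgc
KIF11, chr10:92593090-92593119, plus strand: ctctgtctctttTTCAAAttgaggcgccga
BUB1B, chr15:40161034-40161063, plus strand: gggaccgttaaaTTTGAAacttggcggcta
CDC25C, chr5:138331817-138331846, minus strand: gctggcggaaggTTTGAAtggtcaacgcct
CENPA, chr2:26786026-26786055, plus strand: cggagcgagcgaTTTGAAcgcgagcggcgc
CDK1, chr10:60778453-60778482, plus strand: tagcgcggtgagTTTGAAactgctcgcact

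In PLK1, CCNB2 and MKI67 the match began at the same distance, 29 bases before the start, and in KIF11 at 28. The other G2/M members with CHR letters were CDC20, CENPF, KIF23 and TOP2A. The 7 G2/M members with a window and no CHR letters were AURKB, BUB1, CCNA2, CCNB1, CDC25B, CENPE and KIF20A.

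E2F letters had the opposite distribution. They stood in 11 of 14 G1/S promoters (78.6%), in 2 of 19 G2/M promoters (10.5%, CDK1 and CENPA) and in 3.99% of all genes. The sites of E2F1 itself and of 6 genes that load or form the replicative helicase are printed with the E2F letters in capitals. Capitals that begin with GCG mark a match on the opposite strand. In MCM2 and MCM6 the capitals are overlapping matches on both strands, and in E2F1 the leading capitals are the last 6 bases of a further match on the opposite strand.
E2F1, chr20:33686387-33686416, minus strand: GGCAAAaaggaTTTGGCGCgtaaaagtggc
CDC6, chr17:40287875-40287904, plus strand: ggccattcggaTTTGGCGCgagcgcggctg
CDT1, chr16:88803743-88803772, plus strand: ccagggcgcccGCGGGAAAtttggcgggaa
MCM2, chr3:127598406-127598435, plus strand: aaccactTTTCGCGCGAAAcctggttgttg
MCM3, chr6:52284728-52284757, minus strand: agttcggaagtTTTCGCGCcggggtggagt
MCM6, chr2:135876511-135876540, minus strand: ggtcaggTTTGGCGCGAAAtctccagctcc
MCM7, chr7:100101388-100101417, minus strand: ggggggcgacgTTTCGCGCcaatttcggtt

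CDC25A, GINS2, PCNA and TYMS were the other G1/S members with E2F letters, and CCNE1, RRM1 and RRM2 were those without. CDK1 and CENPA held both CHR and E2F letters. The CCAAT box was common in both phases, in 10 of 14 G1/S promoters (71.4%) and 17 of 19 G2/M promoters (89.5%), beside 39.7% of all genes. BUB1B and CENPE were the G2/M members without it.

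The 150 bases before the start of MKI67 and of MCM6 show how the letters sit together, with all matches in capitals. MKI67, the proliferation marker Ki-67, has CHR letters at 47 and 29 bases before the start and CCAAT letters, read as ATTGG, at 98 and 24, of which the last overlaps a CHR. MCM6, a helicase subunit, has E2F letters at 152, 148, 90 and 86 bases before the start, and ATTGG at 100 and 58. The E2F matches at 152 and 148 overlap on opposite strands, as do those at 90 and 86, and the first begins 2 bases before the printed stretch.
MKI67, chr10:128126424-128126573, minus strand: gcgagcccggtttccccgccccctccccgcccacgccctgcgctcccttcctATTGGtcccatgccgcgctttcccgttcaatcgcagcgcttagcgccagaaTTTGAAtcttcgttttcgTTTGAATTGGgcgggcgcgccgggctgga
MCM6, chr2:135876444-135876593, minus strand: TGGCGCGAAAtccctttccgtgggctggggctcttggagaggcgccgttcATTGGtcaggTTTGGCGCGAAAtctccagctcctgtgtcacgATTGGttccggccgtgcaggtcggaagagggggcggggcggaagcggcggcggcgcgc

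**Figure D1:**
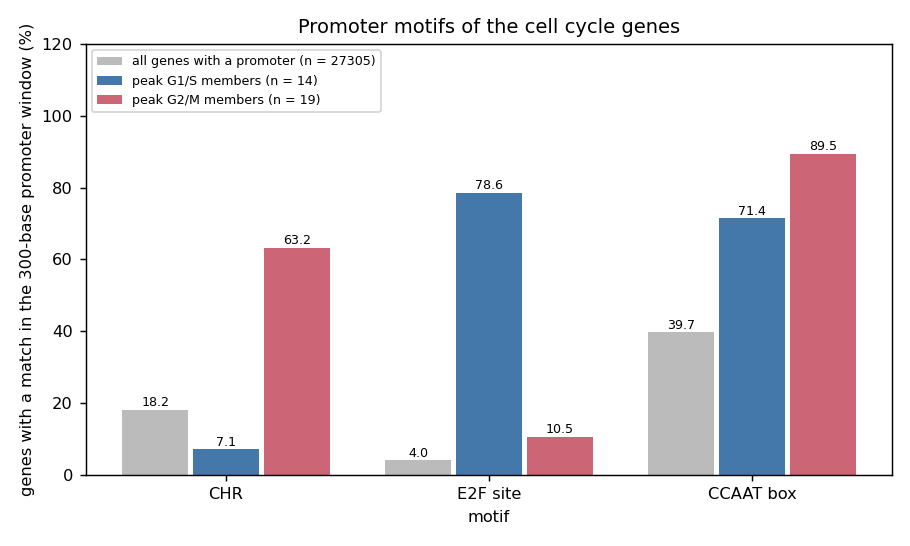
Share of genes (%, vertical axis) with CHR, E2F or CCAAT letters in any of their 300-base promoter windows. Bars are for all 27305 genes with a window, 14 G1/S members and 19 G2/M members. CHR letters are in 63.2% of the G2/M members and E2F letters in 78.6% of the G1/S members.

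Nearly the whole set was transcribed. A gene was called detected when it had at least 10 counts in every library, and 52 of 53 members were (98.1%), where 22.9% of all 60709 genes and 62.2% of 19913 protein-coding genes were. The median detected member had a mean of 110.8 CPM, and the median of all 13920 detected genes was 31.3 CPM. Levels of single genes are compared with each other below only per length, as CPM per kilobase of exon. On that scale the medians were 26.1 and 6.19, and 51 of the 52 detected members lay above the median of all detected genes. CCNE2, a cyclin E, was the exception.

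**Figure D2:**
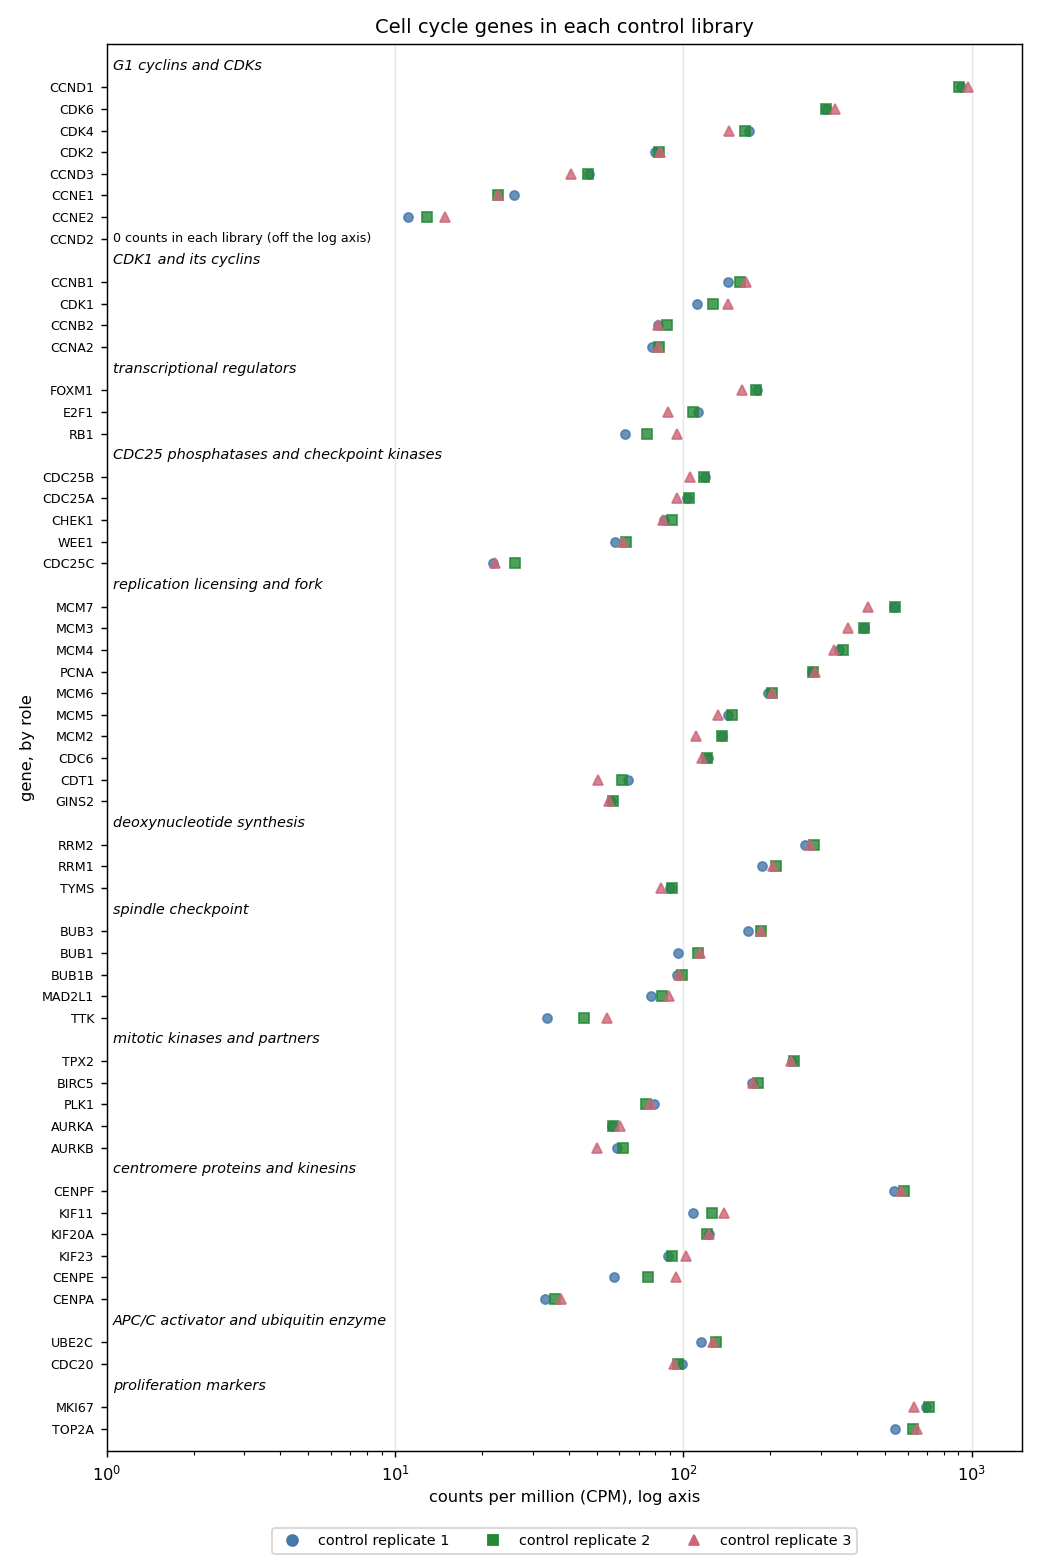
Level of each of the 53 genes in the 3 control libraries, in CPM on a log axis, grouped by role. Points of 1 gene mostly lie close together, RB1, TTK and CENPE are spread the most, and CCND2 had 0 counts.

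Among the G1 cyclins, the transcript of cyclin D1 was abundant and that of cyclin D2 was not detected. CCND1 (ENSG00000110092.4, chr11:69641087-69654474, plus strand, GRCh38) had 920, 904 and 971 CPM. Per kilobase it had 193 ± 7.19 CPM (SD, n = 3), the highest mean of the 53 genes. CCND3, the third D-type cyclin, had 47.1, 46.8 and 40.7 CPM, so that CCND1 exceeded it per kilobase 23.5, 23.2 and 28.7 times. With the longest transcript as the length, the mean ratio was 11.6 ± 1.43 (SD, n = 3) in place of 25.1 ± 3.09.

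CCND2 (ENSG00000118971.9, chr12:4273772-4305350, plus strand) had 0 counts in each library. At these depths a true level of up to 3 counts cannot be told from none, which is 0.281, 0.263 and 0.339 CPM (counting error only). Against that limit in each library, CCND1 was at least 4245-fold higher per kilobase. Of its exon bases, CCND2 shares 13.8% with AC008012.1 on its own strand, and CCND1 shares 10.3% with LTO1 on the opposite strand. How reads that match several genes were treated is not given, and the limit does not cover this. Cyclins of the same type thus held the top and the bottom of the set.

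The kinases that D-type cyclins activate were both present. CDK4 had 169, 163 and 143 CPM, and CDK6 had 312, 312 and 337 CPM. Per kilobase the order was the other way, with CDK4 1.92 ± 0.242 times CDK6 (SD, n = 3), the exons of CDK6 being longer. With the longest transcript as the length, the ratio was 2.78 ± 0.349. CDK4 was lowest and CDK6 highest in replicate 3. Of the exon bases of CDK4, 43.2% are shared with TSPAN31 on the opposite strand, and whether the counting used strand is not given in the sources used here.

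The cyclins E, which work with CDK2 at the G1/S transition, were both in the lower part of the set per kilobase. Of all detected genes, 62.0% lay below CCNE1 and 31.0% below CCNE2 on that scale. CCNE1 had 25.9, 22.7 and 22.7 CPM and CCNE2 had 11.1, 13.0 and 14.9 CPM. Per kilobase CCNE1 exceeded CCNE2 4.01, 3.02 and 2.63 times. CCNE2 lay below its neighbour in the order per kilobase, WEE1, in every library, and shares 37.1% of its exon bases with opposite-strand genes including INTS8. Their partner CDK2 had 81.7 ± 1.72 CPM (SD, n = 3), with all 3 libraries between 79.7 and 82.8.

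For mitotic entry, CDK1 had 112, 127 and 143 CPM, lowest in replicate 1 and highest in replicate 3. CCNB1, cyclin B1, had 143, 158 and 165 CPM, and CCNB2, cyclin B2, had 81.6, 87.9 and 81.6 CPM. Per kilobase CCNB1 was 2.03 ± 0.158 times CCNB2 and 2.11 ± 0.105 times CCNA2, the cyclin A of S phase and G2 (SD, n = 3). With the longest transcript these were 2.14 ± 0.166 and 2.49 ± 0.123. CCNA2 itself had 80.5 ± 2.23 CPM, an SD below its counting error.

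**Figure D3:**
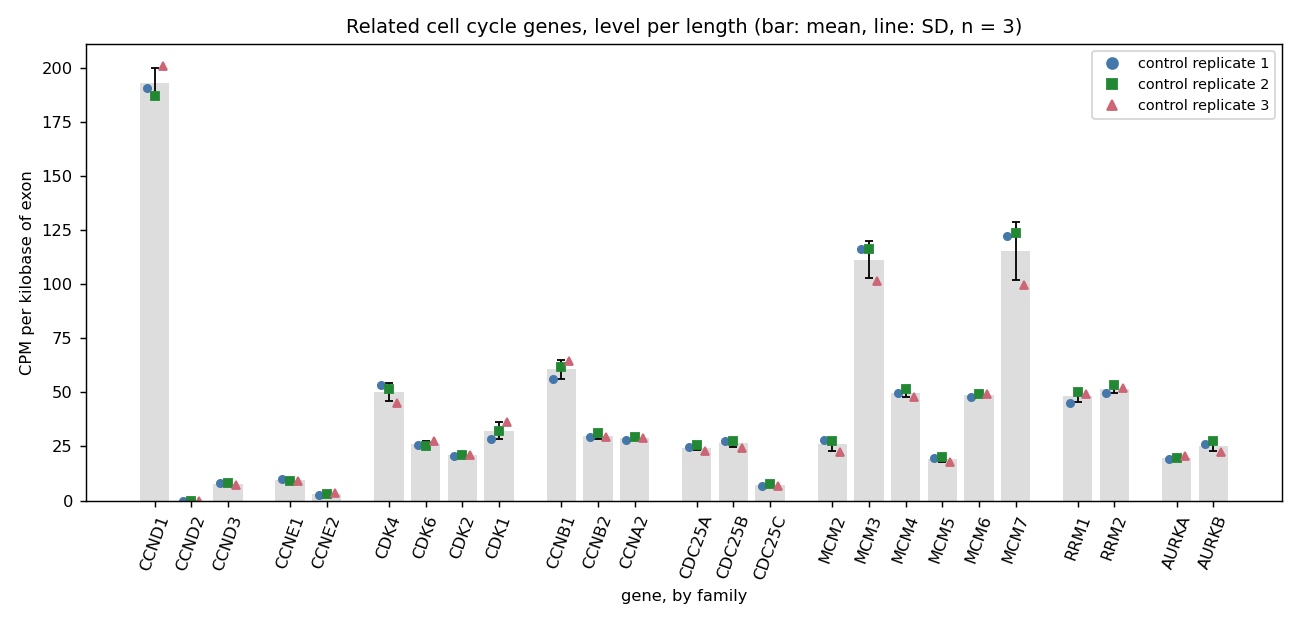
Level per length of related genes (CPM per kilobase of exon, vertical axis), with bars for the mean, lines for the SD and points for the 3 control libraries. CCND1 stands at 193 and CCND3 at 7.73, and MCM3 and MCM7 lie above the other MCM genes.

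Of the transcriptional regulators, RB1 and E2F1 stood in opposite order across the libraries. RB1 (chr13:48303726-48599436, plus strand), which restrains E2F, had 62.7, 74.6 and 94.9 CPM. E2F1 (chr20:33675683-33686404, minus strand), which activates replication genes, had 112, 108 and 88.4 CPM. RB1 was highest and E2F1 lowest in replicate 3, so the ratio of E2F1 to RB1 per kilobase was 4.62, 3.74 and 2.40. RB1 transcripts have a GC content of 37.3% and E2F1 transcripts 62.5%, and replicate 3 differed by GC content across all genes, as described below. FOXM1, an activator of G2/M genes, had 181, 178 and 160 CPM.

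The CDC25 phosphatases activate CDKs, and the kinases CHEK1 and WEE1 hold them back. CDC25A and CDC25B had 101 ± 5.09 and 114 ± 7.38 CPM, and the ratio of CDC25B to CDC25A per kilobase was 1.08 ± 0.0229 (SD, n = 3). Their ranges overlapped over all exons and did not with the longest transcript, where the ratio was 1.19 ± 0.0252. CDC25C had 21.9, 26.1 and 22.1 CPM, and CDC25A exceeded it 3.51 ± 0.275 times per kilobase (2.45 ± 0.192 with the longest transcript). WEE1, which phosphorylates CDK1, stood per kilobase at 0.251 ± 0.0227 of CDC25B (0.372 ± 0.0337 with the longest transcript). CHEK1, the replication checkpoint kinase, had 87.2 ± 3.34 CPM.

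The replication group held some of the highest levels of the set. MCM2 to MCM7 form 1 helicase of 6 different subunits, yet their transcripts were unequal, the highest exceeding the lowest 6.26, 6.16 and 5.68 times per kilobase in the 3 libraries. MCM7 had 536, 542 and 437 CPM and MCM3 had 424, 425 and 371 CPM, and their ranges per kilobase overlapped, though not with the longest transcript (MCM7 to MCM3 1.29 ± 0.0558, SD, n = 3). MCM5 was the lowest of the 6 per kilobase, at 19.1 ± 1.12, and MCM7 exceeded it 6.00 ± 0.377 times. MCM4 and MCM6 lay between, with overlapping ranges near 49.7 and 48.9 per kilobase, and MCM2 stood at 26.0 ± 3.01. With the longest transcript as the length, MCM4 and MCM6 did not overlap, at 82.8 and 53.8. On that length the highest still exceeded the lowest 5.58, 5.49 and 4.96 times.

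PCNA, the sliding clamp of the polymerases, had 278, 282 and 286 CPM. Its level per kilobase, 192 ± 2.68 (SD, n = 3), had a range inside that of CCND1. CDC6 and CDT1 load the MCM helicase onto origins. CDC6 had 122, 121 and 116 CPM, and CDT1 had 64.1, 61.2 and 50.4 CPM, lowest in replicate 3. GINS2, a subunit of the active helicase, was among the steadiest members at 56.1 ± 0.742 CPM.

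Of the enzymes that supply deoxynucleotides, the ribonucleotide reductase subunits lay close together. RRM2 had 264, 284 and 276 CPM and RRM1 had 188, 210 and 205 CPM, with a ratio of RRM2 to RRM1 per kilobase of 1.07 ± 0.0264 (SD, n = 3) and overlapping ranges. With the longest transcript the ratio was 1.18 ± 0.0290, and the ranges, 71.9 to 77.2 and 59.4 to 66.4, were apart. TYMS, thymidylate synthase, had 90.1, 91.6 and 83.6 CPM. It shares 46.6% of its exon bases with opposite-strand genes, ENOSF1 and TYMSOS, and RRM2 shares 20.2% with a gene on its own strand.

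In the spindle checkpoint, TTK stood apart by its spread. TTK (chr6:80003887-80042527, plus strand), the kinase also called MPS1 that starts checkpoint signaling at unattached kinetochores, had 33.7, 45.2 and 54.4 CPM. Replicate 3 was 1.62 times replicate 1, and the coefficient of variation was 23.4%, where counting alone gives 4.70%. BUB3, a scaffold of the checkpoint complex, had 168, 186 and 186 CPM, and MAD2L1, which inhibits the APC/C, had 77.1, 84.6 and 89.2 CPM.

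BUB1, a checkpoint kinase, had 95.8, 112 and 114 CPM, lowest in replicate 1. BUB1B, which encodes BubR1, had 95.2, 99.1 and 96.4 CPM. Their order per kilobase depends on the length taken, with BUB1B 1.22 ± 0.105 times BUB1 over all exons and 0.871 ± 0.0748 times with the longest transcript (SD, n = 3). BUB1B also shares 10.2% of its exon bases with the readthrough gene BUB1B-PAK6.

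TPX2, which activates Aurora A and builds the spindle, was the steadiest of the mitotic kinase group, with 239, 241 and 236 CPM. BIRC5, survivin, a partner of Aurora B at the centromere, had 177 ± 4.84 CPM (SD, n = 3). PLK1, a kinase of mitotic entry and exit, had 79.2, 73.9 and 76.6 CPM. AURKA had 56.6, 57.0 and 60.3 CPM and AURKB had 58.6, 61.9 and 50.3 CPM, so replicate 3 was highest for one and lowest for the other. Per kilobase AURKB stayed above AURKA in each library, 1.35, 1.42 and 1.09 times. The mean ratio was 1.29 ± 0.175, and 1.77 ± 0.240 with the longest transcript.

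Of the centromere and motor genes, CENPF was abundant and CENPE was both lower and widely spread. CENPF, a large kinetochore protein, had 537, 581 and 567 CPM. CENPE (chr4:103105806-103198409, minus strand), the kinetochore kinesin that moves chromosomes to the spindle equator, had 57.6, 75.6 and 94.6 CPM, and replicate 3 was 1.64 times replicate 1. CENPF exceeded CENPE 7.54, 6.21 and 4.84 times per kilobase.

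KIF11, the kinesin that separates spindle poles, had 108, 126 and 138 CPM, lowest in replicate 1. KIF23, a midzone kinesin, had 88.6, 91.1 and 102 CPM, and CENPA, the centromeric histone H3 variant, had 33.1, 35.9 and 37.7 CPM. KIF20A, a kinesin of cytokinesis, had 123, 121 and 123 CPM, the smallest spread of the detected members. All 6 genes of this group lay above the mean of the other libraries in replicate 3 (48.1% of all detected genes did), KIF20A by 0.01 and CENPF by 0.02 on the log2 scale. After removal of the GC trend described below, 5 of 6 did (49.9% of all genes), and CENPF was at -0.12. The median log2 difference of the 6 was 0.16 before and 0.07 after. Their median GC content was 41.6%, beside 48.4% for all detected genes. This is 1 of 11 groups, and 26 of the 52 detected members lay above that mean before the removal. The count was 4 of 5 in the spindle checkpoint and 3 of 4 for CDK1 and its cyclins. It was 2 of 10 in replication licensing and fork, and 1 of 5 for CDC25 phosphatases and checkpoint kinases.

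UBE2C, the E2 enzyme of the APC/C, had 115, 130 and 127 CPM, and CDC20, its mitotic activator, had 99.1, 95.9 and 92.7 CPM. Per kilobase UBE2C was 2.05 ± 0.187 times CDC20 (SD, n = 3), or 2.51 ± 0.229 times with the longest transcript. The name of UBE2C is borne by 4 pseudogenes. MKI67 had 692, 712 and 631 CPM and TOP2A, the topoisomerase that untangles sister chromatids, had 540, 623 and 648 CPM. Replicate 3 was thus lowest for one proliferation marker and highest for the other. Per kilobase TOP2A exceeded MKI67 1.55, 1.74 and 2.04 times.

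Down the order per kilobase of all exons, CCND1 and PCNA led with overlapping ranges, followed by MCM7 and MCM3, then UBE2C and TOP2A. TPX2, CCNB1 and MKI67 each lay below the gene above them without overlap. From RRM2 to BIRC5 every neighbour overlapped, 46.3 to 51.6 per kilobase in the mean. At the low end, CDC25C (6.56 to 7.81) and WEE1 (6.29 to 6.86) overlapped, and CCNE2 at 2.96 was clear of both.

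Most members differed by less than 25% between libraries. The highest library exceeded the lowest by at least 25% for 8 of 52 detected members (15.4%), beside 33.6% of all 13920 detected genes, and the median coefficient of variation was 6.00% in members and 8.69% in all detected genes. Members were also more abundant than the typical detected gene, and the part of abundance in this was not tested. The 8 were CCNE2, CDK1, CDT1, CENPE, E2F1, KIF11, RB1 and TTK. Just outside lay MCM7, with a ratio of highest to lowest library of 1.24, and MCM2 and AURKB at 1.23, and just inside E2F1 and CDT1, both at 1.27. At a difference of 50%, CENPE, RB1 and TTK remained (5.77%, beside 9.74% of all). Without replicate 1, CENPE and RB1 passed 25% (17.8% of all genes), and without replicate 3, CENPE and TTK (12.6% of all genes). For 11 members (21.2%, beside 31.7% of all) the SD between libraries was below the counting error, TPX2, PCNA, GINS2 and KIF20A among them.

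Differences between the libraries followed GC content, both for replicate 3 and between replicates 1 and 2. Replicate 3 was the highest library for 18 of 52 members (34.6%, beside 38.6% of all detected genes) and the lowest for 20 (38.5%, beside 41.8%). The 18 had a median transcript GC content of 41.6% and the 20 a median of 54.6%. Across the 52 members, the log2 ratio of replicate 3 to the other libraries had a Spearman correlation of -0.83 with GC content and a Pearson correlation of -0.81. Across 13843 detected genes these were -0.60 and -0.53. For replicate 2 over replicate 1, the Spearman correlation with GC content was -0.74 in the members and -0.35 over all genes. These are correlations across genes measured in the same 3 libraries, and genes are not independent replicates. Members were more abundant than the typical detected gene, so counting noise weighs less on their correlations. The part of abundance in the difference from all genes was not tested. CENPE, at 35.3% GC, lay 0.51 above on the log2 scale, and CDT1, at 64.9% GC, differed by -0.32.

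**Figure D4:**
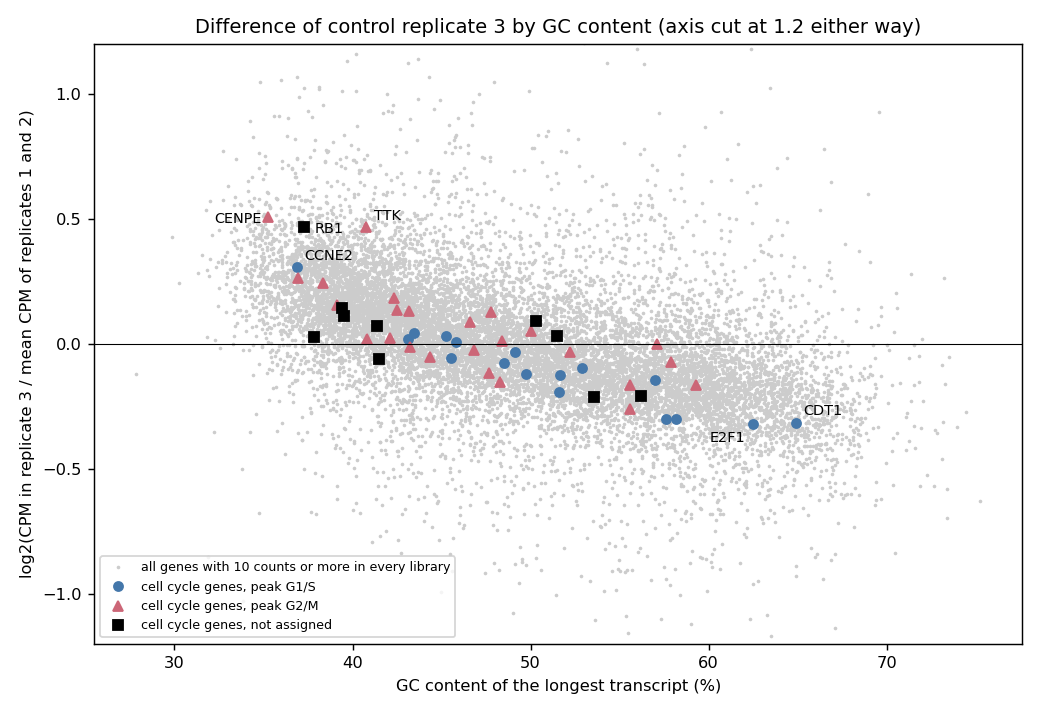
Log2 ratio of CPM in control replicate 3 to the mean of replicates 1 and 2 (vertical axis) against GC content of the longest transcript (%, horizontal axis), with gray points for all detected genes and colored points for the cell cycle genes by phase. CENPE, RB1 and TTK lie highest among the cell cycle genes, and E2F1 and CDT1 lie lowest. After removal of the gray points' GC trend, TTK still lies 0.33, CENPE 0.24 and RB1 0.23 above 0.

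Once the GC trend over all genes was removed from each library, 2 members kept a difference of at least 25% (3.85%, beside 23.6% of all genes), TTK with a ratio of 1.43 and CENPE of 1.29. RB1 came to 1.22 and E2F1 to 1.09. CDK1 went from 1.28 to 1.03. After the removal, the replicate 3 difference still had a Spearman correlation with GC content of -0.19 across the 52 members. Over all detected genes it was 0.004. TTK, with a GC content of 40.8%, kept a log2 difference in replicate 3 of 0.33, from 0.47 before. The spread that remained was not of replicate 3 alone. After the removal, replicate 2 still lay above replicate 1 by 0.36 for TTK and 0.24 for CENPE on the log2 scale.

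The phase lists differed in the same library. Among 17 G1/S members, replicate 3 was the highest for 2 (11.8%) and the lowest for 11 (64.7%). Among 25 G2/M members it was the highest for 11 (44%) and the lowest for 6 (24%). Over all detected genes it was the highest for 38.6% and the lowest for 41.8%, so the 44% lay near the share of all genes. These counts were made before removal of the GC trend and were not repeated after it. The median log2 difference of replicate 3 was -0.097 before and -0.052 after the removal in G1/S members. In G2/M members it was 0.021 before and 0.022 after. The median G1/S member had 137, 136 and 116 CPM and the median G2/M member 99.1, 112 and 106 CPM, so the ratio of G2/M to G1/S was 0.726, 0.828 and 0.908 (mean 0.821 ± 0.0911, SD, n = 3). These are medians of CPM, not corrected for length, and per kilobase the list medians were 35.8 for G1/S and 28.8 for G2/M. With the GC trend removed the ratio was 0.770, 0.845 and 0.913, in the same order. The median GC content was 49.8% for the G1/S list and 46.6% for the G2/M list, and the mitochondrial share was also highest in replicate 3. The part of either in the ratio was not tested beyond the removal of the GC trend. In bulk RNA, a change in the number of cells in a phase and a change in RNA per cell cannot be told apart.

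Genes of the same pathways outside the 53 were taken from 6 fixed lists with 81 genes, of which 80 were detected. Their median was 12.3 CPM per kilobase, below that of the members. The highest library exceeded the lowest by at least 25% in 25 of the 80 (31.3%), beside the 33.6% of all detected genes given above. The genes named are those with the highest and the lowest CPM of each list, and CPM does not order genes by level per length, so their level per kilobase is given too.

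Of 7 CDK inhibitors, 6 were detected and 2 passed this 25% difference. CDKN1A, which encodes p21, a target of p53, had 264, 247 and 311 CPM (89.9 per kilobase), with a GC content of 58.1%. CDKN2A, the other that passed, had 7.48, 8.23 and 9.37 CPM (1.93 per kilobase), with a GC content of 61.4%. Both were highest in replicate 3, and only these 2 of the 6 detected inhibitors lay above the mean of the other libraries there. CDKN2B, an inhibitor of CDK4 and CDK6, had 0.88 CPM (0.22 per kilobase). Of 16 E2F, pocket protein and DREAM complex genes, all were detected and 3 passed. MYBL2, an activator of mitotic genes, had 273 ± 31.6 CPM (98.3 per kilobase). LIN37, a subunit of the MuvB core, had 6.05 CPM (2.14 per kilobase), and per kilobase E2F5, an E2F of the repressor class, was lower, at 1.81.

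All 14 genes of origin recognition and firing were detected and 5 passed. MCM10, a firing factor, had 134 ± 2.48 CPM (SD, n = 3; 24.6 per kilobase), and ORC5, an origin recognition subunit, had 18.9 CPM (5.08 per kilobase). Per kilobase GMNN, the inhibitor of CDT1, was the highest of this list at 30.4 and ORC4 the lowest at 4.29. All 15 genes of APC/C subunits and FZR1 were detected and 7 passed. ANAPC5 had 170 ± 0.302 CPM (13.8 per kilobase) and ANAPC10 had 5.36 CPM (1.19 per kilobase), and per kilobase CDC16 was the highest, at 28.4. In this list the median level was lowest in replicate 3, at 56.3 CPM, while the median log2 difference of its genes there was 0.10, so the signs differ.

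All 16 kinetochore genes were detected and 5 passed. ZWINT, which recruits checkpoint proteins, had 113 ± 9.73 CPM (SD, n = 3; 47.6 per kilobase) and CENPI had 20.5 CPM (4.75 per kilobase), and per kilobase CENPC was lower, at 4.44. All 13 cohesin and condensin genes, which hold and compact the chromatids, were detected and 3 passed. SMC1A had 678 ± 60.6 CPM (64.7 per kilobase) and NCAPG had 73.2 CPM (14.9 per kilobase), and per kilobase STAG1 was lower, at 11.4. CDKN2A, E2F5, GMNN, ORC4, CDC16, CENPC and STAG1 were named after their values were seen.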

How the data were processed

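Messenger RNA was sequenced in SH-SY5Y cells. The values the authors deposited are raw read counts for each Ensembl gene, not normalized, as the header and the values show. Per the submitters' processing notes, fastp 0.21.1, STAR 2.7.7a and featureCounts were used with GRCh38. The annotation release, the use of strand and the treatment of reads that match several genes are not given in the sources used here. Per the labels, the kit was a stranded kit for messenger RNA.

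Of the sample columns, 3 matched control samples by number and 3 matched no label and were not used. The entry of 1 gene, split by line breaks into pieces with 2 nameless lines, was left out. Symbols matched 60436 of 60709 genes, and 0.029% of counts lay in genes without one.

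CPM are counts per 1000000 after TMM scaling (edgeR 4.0.16, R 4.3.3). Level per length is CPM per kilobase of all exons of a gene in GENCODE 29 (GRCh38), and GC content is that of its longest transcript. The GC trend of each library is the median deviation from the gene means in 50 GC bins. It was tested on simulated data before use. Mean and SD are over 3 libraries of 1 group, with no test and no p-value. The planned comparison of peptide and control by edgeR's quasi-likelihood test was not run, since no column matched the peptide samples. Intervals and limits cover counting error only.

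All 53 members are named or counted whatever their values, and for each pathway list the genes with the highest and the lowest mean CPM are named. The members and lists were chosen with earlier results of these data known. Promoter sequences are from RefSeq. Alternatives were other scalings, other minimum counts and folds, GC removal, each replicate left out, another gene length and a shorter promoter window, of which the last 2 were chosen after seeing the data.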

Additional observations from a re-analysis of the deposited data

How the results depend on the processing

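With RLE size factors or library size alone, all 53 levels and all 19 list medians moved by less than the SD between replicates. Leaving out genes of mitochondrial DNA makes the total smaller and raised the median member level from 108.6 to 114.0 CPM, with 22 of 53 levels and 11 of 19 list medians moving by over 1 SD. The count of members whose highest library exceeded the lowest by at least 25% was 8 with each of these scalings and the same genes. It was 3 at a fold of 1.5, 2 with the GC trend removed, and 2 to 8 with each replicate left out, lowest without replicate 1 and without replicate 3. A maximum over fewer libraries is smaller by construction. With the length of the longest transcript, 15 of 22 ratios per kilobase moved by over 1 SD and 1 changed its order, BUB1B to BUB1, to 0.871. With 250 bases before the start alone, CHR letters stood in 11 of 19 G2/M promoters (57.9%), beside 16.1% of all 27305 genes. E2F letters then stood in 9 of 14 G1/S promoters (64.3%), beside 3.40% of all genes. Minimum counts of 5 and 1 left the count of detected members unchanged at 52. The alternatives planned for the comparison of peptide and control were not run. No paired analysis was possible because only control samples had matching columns. Exons shared with genes on the opposite strand (at least 10% of bases in 8 members) and pseudogenes of the same name (13 members) limit those levels. So do exons shared with genes on the same strand (at least 10% of bases in 3 members, CCND2, RRM2 and BUB1B). With 3 libraries in the group, single libraries could not be tested as outliers.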
